A study of Mus musculus with 24 samples.

Results

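The genes described here are the 36 aminoacyl-tRNA synthetases of the mouse that were found by symbol among the 19895 entries of the deposited expression table. They comprised 20 genes of cytosolic enzymes and 16 genes of mitochondrial enzymes, whose symbols end in 2. All 36 had reads in every library, and 32 of them (17 cytosolic and 15 mitochondrial) had an entry of their own and were among the 11438 genes tested. The other 4 members, Farsb, Mars, Yars and Iars2, were counted together with Sgpp2, Ddit3, C77080 and Rab3gap2, and their values come from a separate fit that kept such joint entries.

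An aminoacyl-tRNA synthetase attaches an amino acid to the tRNA that carries its anticodon, and every round of elongation on a ribosome draws on the tRNAs charged in this way. Cells keep separate sets of these enzymes for the cytosol and for the mitochondrial matrix, both encoded in the nucleus, although Gars and Kars are known to serve both places and the cytosolic enzyme Eprs charges tRNAs for both glutamate and proline. Several cytosolic enzymes sit in a large multi-synthetase complex with the scaffold proteins Aimp1, Aimp2 and Eef1e1, and many cytosolic synthetase genes are known targets of ATF4, the transcription factor induced when amino acids run short.

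Polysome profiling was used to compare organoids, cultures of epithelial cells grown in a gel matrix, after 1 h with vehicle (DMSO) or with 10 nM CR-31, a synthetic rocaglate that inhibits the RNA helicase eIF4A. N organoids came from ducts of wild-type mouse pancreas, and KP organoids from pancreatic tumours of mice with engineered alleles, mutant p53 among them. There were 3 replicates for every one of these 4 groups. A lysate gave a library of polysome-associated mRNA, pooled from fractions with 3 or more ribosomes, and a library of total mRNA, hence 24 libraries from 12 lysates. The questions were how KP and N organoids differ in mRNA level, in polysome association and in their ratio (translational efficiency), and what CR-31 does to each. The labels do not say whether replicates were separate cultures or mice, so p-values measure the spread between these samples, and a normal and a tumour culture differ in more than their alleles.

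Libraries held 47308461 to 267463046 counted reads in the polysome fraction and 72077342 to 167384903 in total mRNA, and no member had under 119 reads in any library. The 8 duct epithelium markers summed to between 5469 and 12880 CPM (counts scaled to the depth of the library) per library, whereas the fibroblast, endocrine and endothelial markers stayed under 1 CPM, the acinar markers between 2.99 and 5.11 CPM, and the immune markers between 1.85 and 29.5 CPM. In such bulk libraries fewer cells of a type and less RNA per cell cannot be told apart. N replicate 3 stood apart: across genes, the deviations of its vehicle polysome library from the mean correlated with those of its CR-31 total library (r = 0.78) more than with those of its own vehicle total library (r = 0.30), and the CR-31 polysome library likewise (r = 0.62 with vehicle total and 0.28 with its own CR-31 total library). In KP replicate 1, the CR-31 polysome library correlated with the vehicle total library at r = 0.55 and with its own CR-31 total library at r = -0.047. Across genes, the response to CR-31 in polysomes correlated with that in total mRNA at r = -0.68 in N replicate 3 and -0.28 in KP replicate 1, and between 0.19 and 0.51 in the other 4 replicates. Whether libraries of these replicates were exchanged between vehicle and CR-31 was not tested. An exchange within 1 fraction would turn the sign of that replicate's change with CR-31 in the fraction and alter its ratios of polysome-associated to total mRNA. Main counts and class medians are therefore also given with N replicate 3 or, for CR-31 in KP, with KP replicate 1 left out. No sequencing lane held both organoid types, so KP against N cannot be told apart from the lane. In replicate 2 of both organoid types the vehicle and CR-31 libraries lay in different lanes, so that pair's change cannot be told apart from the lane.

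Sequences are shown for the cytosolic members whose promoter holds the core of the composite site bound by ATF4 and its partners (CARE, letters TGATGCAA on either strand), since these are the promoters in which the known regulator of the family has a matching stretch. RefSeq promoters (GRCm38.p6, from upstream of a start site to just after it) were used for 12 of 20 cytosolic and 14 of 16 mitochondrial members. The core was present in 3 of the 12 and in none of the 14, against 0.746% of tested genes with a promoter. Tars charges tRNA with threonine, Iars with isoleucine and Yars with tyrosine. Each line gives 30 bases 5′ to 3′ along the gene's strand with the core in capitals, and the runs lie at chr13:49682126-49682155 (plus strand) for Iars, chr15:11399655-11399684 (minus strand) for Tars and chr4:129189895-129189924 (plus strand) for Yars.
Iars: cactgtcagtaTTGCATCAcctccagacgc
Tars: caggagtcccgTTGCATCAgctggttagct
Yars: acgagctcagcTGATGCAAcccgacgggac
In Iars and Tars the core reads on the opposite strand, and in Yars on the gene's own strand. The core began 15 bases upstream of the start site in Tars, and at base 8 and base 4 of the transcript in Iars and Yars. A second motif that does not overlap it, the E-box CACGTG bound by MYC and related factors, was found in the promoters of Farsb, Iars, Tars and, among mitochondrial members, Ears2, against 11.6% of tested genes with a promoter. A match is a description of the sequence and was not tested as a binding site. The difference between KP and N in total mRNA of the vehicle groups was 0.40 ± 0.38 (log2 ± SE) for Iars, 0.05 ± 0.31 for Tars and 0.46 ± 0.29 for the joint Yars entry, and none of the 3 passed the test.

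Per length, the cytosolic enzymes were the more abundant mRNAs. In total mRNA of vehicle-treated N organoids the median of the 17 tested cytosolic members was 27.2 RPKM (reads per length of the gene and per depth of the library), that of the 15 mitochondrial members 5.60 RPKM and that of all tested genes 7.06 RPKM. The corresponding medians in KP organoids were 35.6, 7.45 and 6.89 RPKM. Among cytosolic members the order in N ran from Qars, the glutamine enzyme, with 106 ± 11.9 RPKM (SD, n = 3), over Kars for lysine (81.6 ± 3.22), Gars for glycine (81.3 ± 39.1), Nars for asparagine (74.5 ± 39.9) and Sars for serine (69.4 ± 17.4), down to Lars for leucine (10.2 ± 7.28) and Eprs (6.53 ± 4.69). Kars, Gars, Nars and Sars lay within each other's spread.

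The lowest members were mitochondrial. Mars2 for methionine had 1.57 ± 0.489 RPKM in N, Ears2 for glutamate 1.98 ± 0.404 and Aars2 for alanine 2.18 ± 0.0792, values that neighbours in this order shared within their spread. At the other end Fars2 for phenylalanine had 14.9 ± 0.839 RPKM and Yars2 for tyrosine 11.4 ± 2.36. Lars2, the mitochondrial leucine enzyme, was the exception in its class: it had the highest mean of all members in N (204.5 ± 190.4 RPKM) and in KP (255 ± 129 RPKM), with an SD close to the mean in N.

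**Figure D1:**
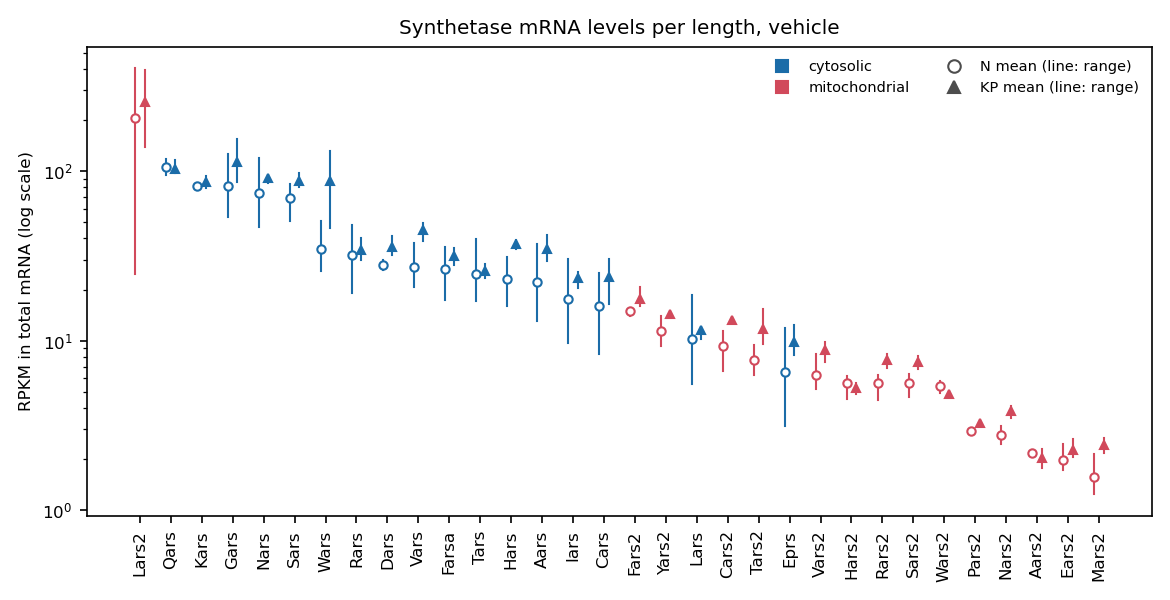
Level of the 32 members with an entry of their own in total mRNA of vehicle-treated organoids, in RPKM on a log axis and ordered by the mean in N. Open circles are N means, triangles KP means, lines run from the lowest to the highest of 3 libraries, and blue and red mark cytosolic and mitochondrial members; most cytosolic members lie to the left (medians 27.2 and 5.60 RPKM in N), while the mitochondrial Lars2 lies first with a wide range.

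KP organoids held more polysome-associated mRNA than N organoids for several synthetases of both kinds, and no member was called lower. With vehicle, 8 of the 32 tested members were higher in KP and 0 lower at an adjusted p under 0.25, the threshold of the study, against 20.9% of all tested genes called higher and 22.2% called lower. The 8 were Vars, Hars and Wars among 17 cytosolic members and Cars2, Vars2, Tars2, Sars2 and Fars2 among 15 mitochondrial members. The median log2 difference was 0.14 over the cytosolic members, 0.28 over the mitochondrial members and -0.034 over all tested genes. The share of members called higher was close to that of all tested genes. The medians were 0.18, 0.53 and -0.017 when N replicate 3 was left out.

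Cars2, which charges mitochondrial tRNA for cysteine, differed most clearly. Its polysome-associated level was 17.3, 18 and 16.5 CPM in the N vehicle replicates 1 to 3 and 33.1, 40.6 and 29.7 CPM in KP, so the groups did not overlap. The difference was 1.00 ± 0.19 on the log2 scale (edgeR, adjusted p = 0.0074). Vars2, the mitochondrial valine enzyme, had 42.6, 29.1 and 37.2 CPM in N and 57.4, 75.2 and 61.2 CPM in KP, with no overlap (0.83 ± 0.27, adjusted p = 0.054). Tars2 for threonine had 22.4, 18.8 and 28.9 CPM in N and 28.6, 51.2 and 37.6 CPM in KP. The lowest KP library of Tars2 lay just under the highest N library (0.74 ± 0.26, adjusted p = 0.069). Sars2 (0.69 ± 0.27, adjusted p = 0.10) and Fars2 (0.50 ± 0.28, adjusted p = 0.24) passed by less, and Fars2 had 28.9, 26.6 and 49.8 CPM in N against 39.5, 64.2 and 44.9 CPM in KP, where N replicate 3 lay above 2 of the KP libraries.

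Among cytosolic members, Vars for valine had 190.1, 119.5 and 169 CPM in the N vehicle replicates and 256, 326.5 and 283.5 CPM in KP (0.86 ± 0.28, adjusted p = 0.055). Hars for histidine had 57.7, 45.8 and 45.1 CPM in N and 91.5, 62.6 and 81.1 CPM in KP (0.66 ± 0.23, adjusted p = 0.071). Wars for tryptophan had 139, 81.0 and 161 CPM in N and 253, 389 and 162 CPM in KP (1.08 ± 0.40, adjusted p = 0.086). All 3 were without overlap, Wars by a small margin, and KP replicate 2 held its highest value. In these vehicle polysomes 3 cytosolic and 4 mitochondrial members lay higher in KP without overlap, against 18% of tested genes. Wars2 was the 1 member that lay lower without overlap, against 15.8% of tested genes. Without KP replicate 2 Wars and Tars2 no longer passed (adjusted p = 0.30 and 0.29), nor did Hars without KP replicate 1 (0.26).

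Among the 7 tested members of the multi-synthetase complex (Eprs, Iars, Lars, Qars, Rars, Kars and Dars), 0 were called, 6 had a negative log2 difference, and the median was -0.21. The other 10 cytosolic members held the 3 calls and had a median of 0.22. The difference between these lists was not tested. Without N replicate 3 the complex had 1 call (Dars, higher), 4 negative differences and a median of -0.059, and the other cytosolic members had 5 calls and a median of 0.59. Of all tested genes 20.9% were called higher and 22.2% lower, and 26.3% each way when N replicate 3 was left out, and the counts of all lists in this comparison read against these shares. Kars, whose values were even across libraries, had 181, 195 and 212 CPM in N and 199, 144 and 198 CPM in KP (-0.12 ± 0.20). Of the 10 tested members known as ATF4 targets, only Wars was called, and their median was 0.043. With N replicate 3 left out, 2 of these were called higher and the median was 0.15. By the fold of the catalytic domain, 4 of 16 members of class I and 4 of 16 of class II were called, and without N replicate 3 there were 7 and 9. In the joint entries, Farsb, a subunit of the cytosolic phenylalanine enzyme, had a difference of 0.53 ± 0.18 (adjusted p = 0.062) and Yars of 0.57 ± 0.27 (adjusted p = 0.17), reads of Sgpp2 and C77080 included.

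**Figure D2:**
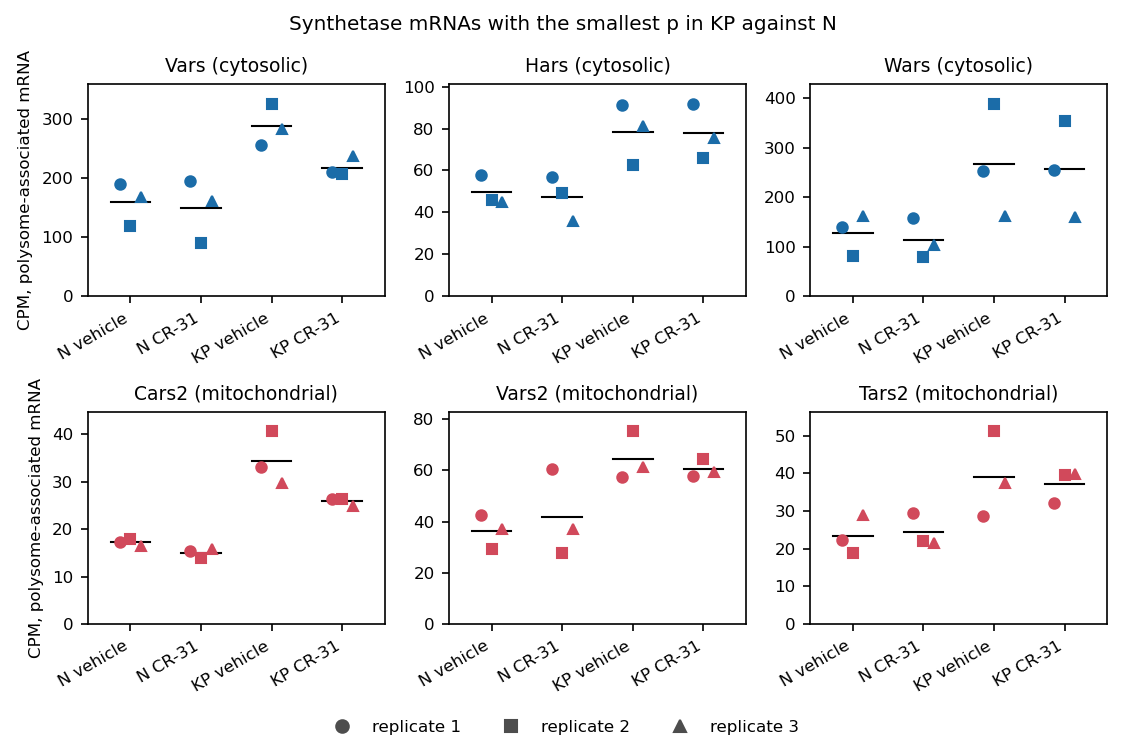
Polysome-associated mRNA in CPM on linear axes from 0, by organoid type and treatment, for the 3 cytosolic (blue) and 3 mitochondrial (red) members with the smallest p in KP against N with vehicle. Symbols are single libraries by replicate and bars are means; with vehicle, KP lies above N without overlap for Vars, Hars, Cars2 and Vars2, for Wars by a small margin (161 and 162 CPM), and Tars2 overlaps.

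N replicate 3 bears on these counts. Without it, 16 members were called in vehicle polysomes, 15 higher and 1 lower, against 26.3% of tested genes higher and 26.3% lower. The higher ones were 6 cytosolic members (Dars, Farsa, Hars, Sars, Vars and Wars) and 9 mitochondrial ones, and the lower one was Wars2 at -0.36 ± 0.22. Lars2 was among the higher ones at 1.80 ± 0.44, since its N vehicle polysome libraries had 45.1, 68.6 and 474 CPM and the highest was that of replicate 3. With a block for the replicates of each organoid type (the replicate block), 18 members were called, 16 higher and 2 lower, against 34% and 34.8% of tested genes. The block takes the differences between numbers out of the error, and N and KP libraries of one number do not deviate together, so its p-values are too small if the replicates are independent cultures. Leaving out KP replicate 2 left 4 calls, against 29.8% of tested genes in either direction, and leaving out the vehicle lysate of N replicate 3 alone gave 13, against 48.1%.

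In total mRNA of the vehicle groups, 5 of 32 members were higher in KP and 0 lower, against 13.1% and 15.4% of tested genes. They were Hars, Wars and Vars among cytosolic and Tars2 and Nars2 among mitochondrial members. The median difference was 0.30 over cytosolic members, 0.31 over mitochondrial members and -0.027 over all tested genes, and 16 of 17 and 12 of 15 members had a positive value. Hars had 65.0, 49.6 and 38.5 CPM in N and 83.5, 84.7 and 76.6 CPM in KP, with no overlap (0.68 ± 0.21, adjusted p = 0.069). Wars had 135, 80.1 and 95.3 CPM in N and 229, 379.5 and 129.5 CPM in KP. Its lowest KP library lay below the highest N library (1.25 ± 0.43, adjusted p = 0.093). Vars had 168, 101 and 117 CPM in N and 209.5, 236 and 182 CPM in KP (0.70 ± 0.28, adjusted p = 0.14).

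Of the mitochondrial members, Tars2 had 24.7, 21.03 and 18.7 CPM of total mRNA in N and 25.02, 42.9 and 28.9 CPM in KP (0.59 ± 0.22, adjusted p = 0.13). Nars2, for asparagine, had 12.4, 11.6 and 11.1 CPM in N and 15.6, 17.4 and 14.6 CPM in KP (0.44 ± 0.19, adjusted p = 0.18). Neither overlapped between the groups. In total mRNA 3 cytosolic and 7 mitochondrial members lay higher in KP without overlap and 0 lower, against 15.9% and 16.5% of tested genes. Mars2, the next by p, had 6.46, 4.09 and 4.62 CPM in N and 6.64, 8.65 and 7.75 CPM in KP and missed the threshold (0.60 ± 0.33, adjusted p = 0.29). The joint Farsb entry had 102, 98.8 and 99.0 CPM in N and 205, 177 and 167.5 CPM in KP, a difference of 0.87 ± 0.16 (adjusted p = 0.0098) that includes reads of Sgpp2.

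These 5 calls rested on few libraries. Without N replicate 3 only Hars was called (0.51 ± 0.20, adjusted p = 0.20), against 8.25% of tested genes higher and 10.7% lower. The medians were then 0.28 over cytosolic and 0.29 over mitochondrial members. Leaving out both lysates of KP replicate 2, or the vehicle lysate of KP replicate 2 or of N replicate 3 alone, also left 1 call, against 19.5%, 20.5% and 16% of tested genes in either direction. Without N replicate 2 there were 2 calls (19.8% of tested genes), and 3 without the vehicle lysate of KP replicate 1 (14.1%) or N replicate 2 (20.2%). Without N replicate 1 there were 16 calls, all higher, against 17.7% of tested genes higher and 19.9% lower, and 15 without its vehicle lysate, against 15.3% and 17.5%. With the replicate block 19 members were called, all higher, 11 of them cytosolic and 8 mitochondrial, against 27.7% of tested genes higher and 28.7% lower.

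**Figure D3:**
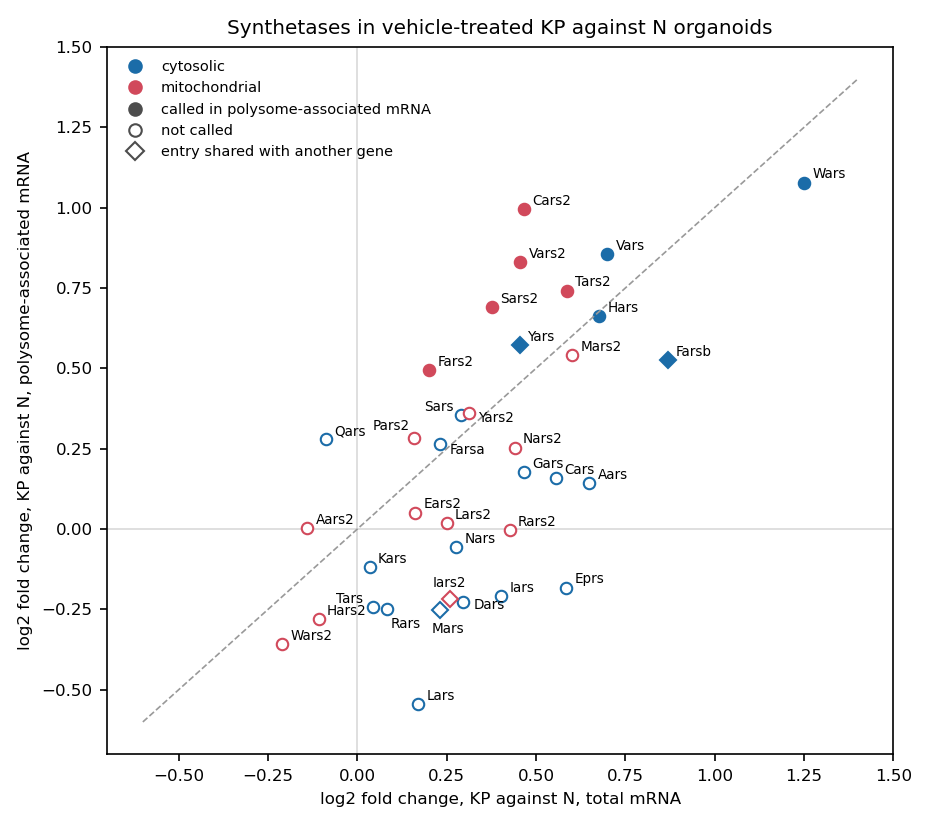
Log2 fold change of KP against N with vehicle in total mRNA (horizontal) and in polysome-associated mRNA (vertical) for each of the 36 members, with cytosolic members in blue, mitochondrial ones in red and the 4 joint entries as diamonds. Filled symbols were called in polysome-associated mRNA and the dashed line marks equal values; Cars2 (1.00) lies highest among mitochondrial members and Wars (1.08) among cytosolic ones.

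Across the libraries, N replicate 2 had low levels of the cytosolic members. The library score, the median over the class of each member's log2 deviation from its mean over the libraries of a fraction, was between -0.50 and -0.72 for cytosolic members in the 4 libraries of N replicate 2, and between -0.091 and -0.45 for mitochondrial members. N replicate 1 had cytosolic scores between 0.11 and 0.28 in its 4 libraries. The cytosolic scores of N replicate 3 were mixed: -0.61 in CR-31 polysomes and -0.41 in vehicle total mRNA, but 0.17 in vehicle polysomes and 0.014 in CR-31 total mRNA. In KP the scores of both classes stayed between -0.0099 and 0.41. The spread of the cytosolic class was thus largest among N libraries, with an SD of 0.50 in vehicle polysomes against 0.068 in KP.

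**Figure D4:**
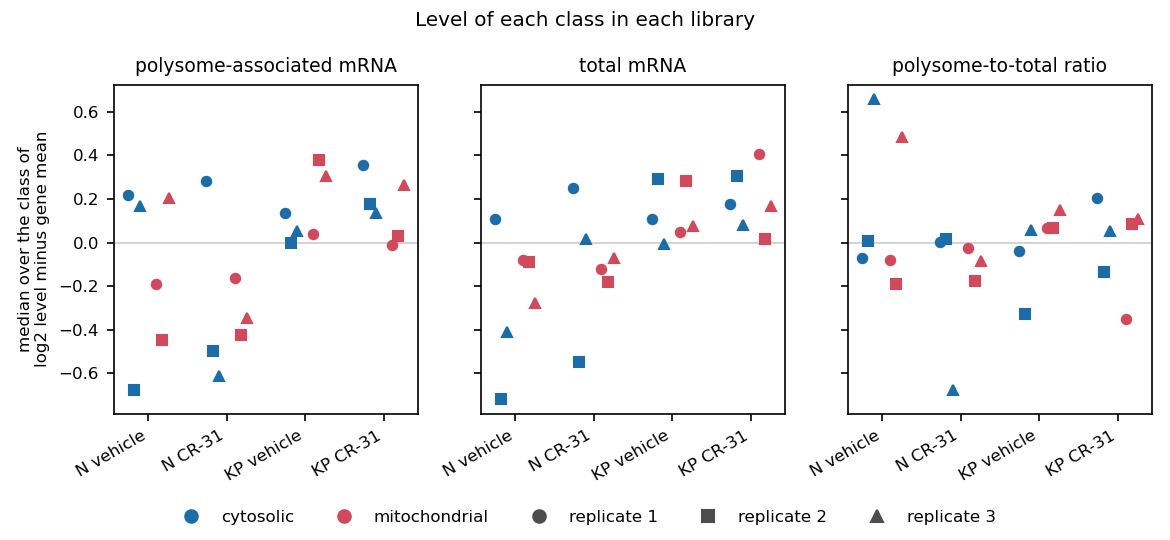
Median over the cytosolic (blue) and the mitochondrial members (red) of the log2 level minus the gene's mean, for each library in polysome-associated and total mRNA and for each lysate in the polysome-to-total ratio, by group, with a symbol for each replicate. N replicate 2 (squares) is low in the cytosolic class in its polysome and total libraries (-0.50 to -0.72). N replicate 3 (triangles) is low in that class in CR-31 polysomes (-0.61) and vehicle total mRNA (-0.41).

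Translational efficiency, the change in polysome-associated mRNA relative to total mRNA, was called between KP and N for 0 of 32 members and for 0% of tested genes (edgeR, lowest adjusted p = 0.43 over all genes). At an unadjusted p under 0.05, 2 members passed, Iars and Eprs, both lower in KP, against 11.3% of tested genes in either direction. DESeq2 called Iars lower (adjusted p = 0.25), against 1.23% of tested genes called higher and 1.72% lower, and the regression on total mRNA called Cars2 (adjusted p = 0.14), against 6.62% of tested genes called higher and 4.46% lower by the regression. The median difference was -0.32 over cytosolic members, 0.026 over mitochondrial members and -8.7e-05 over all tested genes. Over the 3 scalings the cytosolic median ran from -0.35 to -0.30, the mitochondrial one from -0.0027 to 0.050 and that of all tested genes from -0.029 to 0.024.

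Iars and Eprs, both of the multi-synthetase complex, had the smallest p among cytosolic members. The log2 ratio of polysome-associated to total mRNA of Iars was 0.13, 0.43 and 0.30 in the N vehicle lysates and -0.38, -0.76 and -0.12 in KP, with no overlap (-0.71 ± 0.23, edgeR, adjusted p = 0.43). For Eprs the ratio was 0.88, 1.60 and 1.46 in N and 0.29, 0.13 and 0.70 in KP, again with no overlap (-0.94 ± 0.40, adjusted p = 0.43). Aars had ratios of 0.08, 0.21 and 0.81 in N and -0.08, -0.57 and 0.09 in KP, where KP replicate 3 lay just above the lowest N lysate (-0.56 ± 0.28, adjusted p = 0.45). The ratios of 4 cytosolic members (Eprs, Gars, Iars and Lars) lay lower in every KP lysate than in any N lysate and those of 0 members lay higher, against 11.2% and 12.9% of tested genes. When N replicate 3 was left out, 2 cytosolic and 6 mitochondrial members lay higher in KP without overlap and 4 and 1 lower, against 28% and 24.6% of tested genes. Iars shares stretches with the processed pseudogene Gm4849 and Aars with Exosc6 on the same strand, and reads from such stretches may be lost or misplaced.

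The mitochondrial members with the smallest p had positive values. Cars2 had ratios of -0.23, -0.46 and 0.10 in the N vehicle lysates and 0.22, 0.49 and 0.04 in KP (0.45 ± 0.26, adjusted p = 0.48). Vars2 had 0.06, 0.11 and 0.36 in N and 0.32, 0.53 and 0.66 in KP (0.33 ± 0.25, adjusted p = 0.59). Fars2 had -0.12, -0.23 and 0.43 in N and 0.17, 0.45 and 0.32 in KP (0.29 ± 0.24, adjusted p = 0.62). In each of these 3 the groups overlapped, and N replicate 3 was the highest N lysate.

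**Figure D5:**
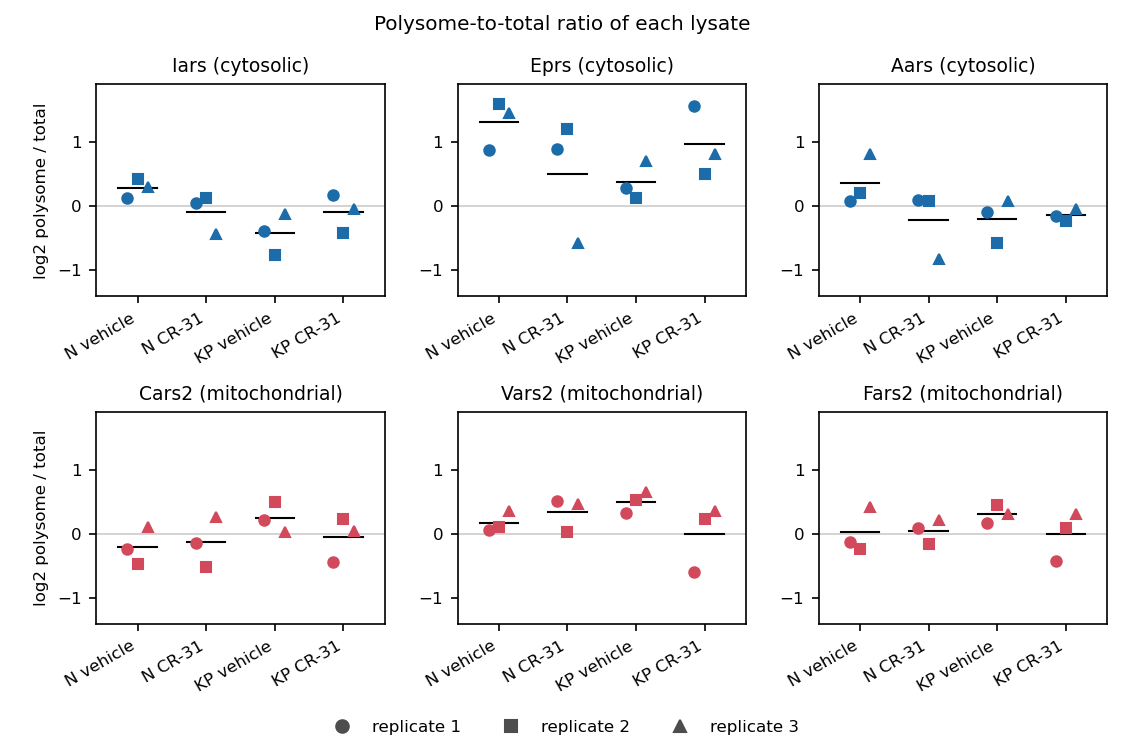
Log2 ratio of polysome-associated to total mRNA in each lysate, by group, for 3 cytosolic (blue) and 3 mitochondrial members (red), with a symbol for each replicate and bars for means. With vehicle, Iars and Eprs lie lower in KP than in N without overlap, whereas Aars, Cars2, Vars2 and Fars2 overlap between the groups.

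Between enzymes for the same amino acid, the mitochondrial enzyme had the higher value of the difference in translational efficiency in 10 of 13 pairs with an entry each, by a median of 0.26 on the log2 scale. The largest gaps were those of proline, with Pars2 at 0.083 and Eprs at -0.94, of glutamate, with Ears2 at -0.12 and the same Eprs at -0.94, and of cysteine, with Cars2 at 0.45 and Cars at -0.32. The 3 pairs with the other order were those of histidine, arginine and tryptophan. In polysome-associated mRNA the mitochondrial enzyme was higher in 9 of 13 pairs by a median of 0.25, and in total mRNA in 5 of 13 with a median of -0.089. Without N replicate 3 the mitochondrial enzyme was higher in 10 pairs in translational efficiency, in 9 in polysome-associated mRNA and in 5 in total mRNA, with medians of 0.25, 0.23 and -0.21. Eprs enters 2 of these pairs, and none of the pair differences was tested.

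Without N replicate 3, 8 members were called in translational efficiency, against 20% of tested genes higher and 15.8% lower. Eprs (-0.85 ± 0.32, adjusted p = 0.13) and Iars (-0.68 ± 0.22, adjusted p = 0.098) were lower in KP, and Farsa for phenylalanine (0.55 ± 0.19), Sars (0.33 ± 0.15), Cars2 (0.61 ± 0.23), Fars2 (0.50 ± 0.20), Sars2 (0.58 ± 0.28) and Tars2 (0.40 ± 0.18) were higher in KP. The class medians were then -0.079 for cytosolic and 0.26 for mitochondrial members. Leaving out the CR-31 lysate or the vehicle lysate of N replicate 3 alone gave 2 calls and 1 call, against 3.54% and 18.8% of tested genes in either direction. In the regression with the replicate block, 15 members were called, 13 higher and 2 lower, and Iars and Eprs turned to 0.47 and 0.27 without being called. The shares of tested genes called there were 27.9% higher and 26.5% lower.

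With CR-31 in both organoid types, the calls among members were all higher in KP. Same-numbered vehicle and CR-31 libraries deviated together, so this is not a check independent of the vehicle groups. In polysomes 6 of 32 members were called higher and 0 lower, against 11.2% and 13.8% of tested genes. The 6 were Hars (0.71 ± 0.23), Wars (1.18 ± 0.40), Cars2 (0.78 ± 0.19, adjusted p = 0.032), Rars2 for arginine (0.77 ± 0.28), Yars2 (0.72 ± 0.23) and Tars2 (0.61 ± 0.26). The medians were 0.39 over cytosolic, 0.48 over mitochondrial and -0.019 over all tested genes, and 0.23, 0.45 and -0.030 when N replicate 3 was left out. In total mRNA 11 members were called higher and 0 lower, against 18.9% and 21% of tested genes. These were Hars, Qars, Sars, Vars and Wars among cytosolic and Cars2, Fars2, Mars2, Sars2, Tars2 and Vars2 among mitochondrial members, with Wars (1.37 ± 0.43), Vars (1.13 ± 0.28, adjusted p = 0.027) and Vars2 (1.01 ± 0.29, adjusted p = 0.044) at the top. The medians in total mRNA without that replicate were 0.26 over cytosolic, 0.31 over mitochondrial and -0.033 over all tested genes.

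The counts with CR-31 depended on single replicates. In polysomes 1 member was called without KP replicate 1 or its CR-31 lysate alone, against 8.03% and 9.48% of tested genes in either direction, and 3 without KP replicate 3, against 14.9%. There were 9 calls without N replicate 3, all higher, against 16% of tested genes higher and 18.7% lower, 12 without its vehicle lysate alone, against 32.3% in either direction, and 22 without N replicate 1 or its CR-31 lysate alone, 20 of them higher, against 14.7% and 12.4% of tested genes higher. In total mRNA 3 members were called without KP replicate 1 (15.7% of tested genes) and 4 without its CR-31 lysate alone (18.6%). There were 6 calls without N replicate 3 (26.9%), and 7 without KP replicate 2 (35.7%), N replicate 2 (32%) or the CR-31 lysate of N replicate 2 (33%). Without N replicate 1 there were 16 (46.1%). With the replicate block, 24 members were called in polysomes, against 28.7% of tested genes higher and 29.5% lower, and 19 in total mRNA, against 31.7% and 33.4%.

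For CR-31 itself in KP organoids edgeR called no member, nor any other gene: 0 of 32 members and 0% of tested genes in polysome-associated mRNA, 0% in total mRNA and 0% in translational efficiency. These counts of members were also 0 after leaving out each lysate or replicate in turn and, in polysome-associated and total mRNA, with the lane as a term. DESeq2 called 0 members as well, and 0.0701% of tested genes in total mRNA. At an unadjusted p under 0.05, 1 member (Cars2) was lower in polysomes, against 3.55% of tested genes in either direction, and no member passed in total mRNA (0.953% of tested genes) or in translational efficiency (5.48%). The median change in polysomes was 0.12 over cytosolic members, -0.093 over mitochondrial members and -0.021 over all tested genes, and without KP replicate 1 it was 0.052, -0.16 and -0.020. Within an organoid type the replicate numbers pair vehicle with CR-31, so the paired fit is given here. That fit held no lane term, and the vehicle and CR-31 libraries of KP replicate 2 were in different lanes. The paired fit called 4 members in KP polysomes, 1 higher and 3 lower, against 8.3% of tested genes higher and 11.1% lower. The paired fit called 0 members without KP replicate 1, 2 or 3, with lowest adjusted p of a member of 0.65, 0.85 and 0.28, and 1 gene in all without KP replicate 1 and 0 without the others. Leaving out N replicate 3, which enters through the shared estimate of spread and the scaling, gave 16 called members, 8 higher and 8 lower, against 25.4% of tested genes higher and 29.5% lower.

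The member that rose in the paired fit was Lars, the cytosolic leucine enzyme. Its polysome-associated level was 62.4, 39.1 and 65.3 CPM with vehicle and 113, 85.5 and 96.5 CPM with CR-31, with no overlap, and the change was 0.86, 1.13 and 0.56 on the log2 scale in the 3 pairs. The unpaired fit gave 0.82 ± 0.46 (adjusted p = 1.0) and the paired fit 0.85 (adjusted p = 0.20), and without KP replicate 1 the value was 0.80 unpaired and 0.85 paired (adjusted p = 0.65). CR-31 was higher within each of the lanes that held KP lysates, but the pair with the widest change (1.13), KP replicate 2, was split between lanes. In N the change of Lars was 0.24, 0.39 and -1.34, and the difference between the changes of KP and N was 0.92 ± 0.65 (adjusted p = 0.9995).

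The 3 members that fell in the paired fit were Vars, Cars2 and Sars2. Cars2 had 33.1, 40.6 and 29.7 CPM with vehicle and 26.4, 26.4 and 24.95 CPM with CR-31, with no overlap and pair changes of -0.33, -0.62 and -0.25 (unpaired -0.41 ± 0.19, adjusted p = 1.0, paired -0.40, adjusted p = 0.20). Vars had 256, 326.5 and 283.5 CPM with vehicle and 210.2, 207 and 237 CPM with CR-31, also with no overlap (unpaired -0.40 ± 0.27, paired -0.40, adjusted p = 0.23). Sars2 had 16.4, 21.2 and 21.9 CPM with vehicle and 12.6, 12.95 and 18.7 CPM with CR-31, and its groups overlapped (unpaired -0.43, paired -0.44, adjusted p = 0.20). Without KP replicate 1 the paired values were -0.43 for Cars2, -0.46 for Vars and -0.47 for Sars2 (adjusted p = 0.65 each). Cars2 and Sars2 had pair changes of the same sign in N (-0.17, -0.38 and -0.05 for Cars2, and -0.07, -0.20 and -0.54 for Sars2). Cars2 shares sequence with Naxd on the opposite strand, and the strand setting of the counting is not given in the sources used here, so their reads may not be told apart.

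Rars2 had 15.16, 14 and 13.6 CPM in KP polysomes with vehicle and 23.6, 16.5 and 18.4 CPM with CR-31, with no overlap, and passed neither fit (0.45 ± 0.28, adjusted p = 1.0 unpaired and 0.31 paired). The groups did not overlap in KP polysomes for 7 cytosolic members, 5 higher (Aars, Dars, Lars, Nars and Rars) and 2 lower (Sars and Vars) with CR-31, and for 4 mitochondrial members, Hars2 and Rars2 higher and Cars2 and Ears2 lower. Over all tested genes 8.94% lay higher and 10.5% lower without overlap. With KP replicate 1 left out, 6 cytosolic and 2 mitochondrial members lay higher and 2 and 5 lower, against 16.4% and 19.3% of tested genes. In translational efficiency the paired regression on total mRNA called Lars higher (adjusted p = 0.24) and Sars2 lower (adjusted p = 0.25), against 6.02% of tested genes higher and 7.76% lower. Without KP replicate 1 it called neither (adjusted p = 0.26 and 0.61) and 0% of tested genes. The change in the log2 ratio in the 3 pairs was 1.21, 0.66 and 0.13 for Lars and -0.83, -0.36 and -0.096 for Sars2, so KP replicate 1 had the widest change of both. In edgeR the change in translational efficiency was 0.66 ± 0.45 for Lars and -0.43 ± 0.30 for Sars2 (adjusted p = 0.53 each), and 0.39 and -0.23 without KP replicate 1.

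In N organoids edgeR called no member and no other gene for CR-31 (0% of tested genes in polysome-associated mRNA, 0% in total mRNA and 0% in translational efficiency). The paired fit and DESeq2 called no member either, and in total mRNA the paired fit called 7 other genes, 6 higher and 1 lower, and DESeq2 0.114% of tested genes. At an unadjusted p under 0.05, 0 members passed in polysomes, against 0.42% of tested genes, and in total mRNA Dars for aspartate was higher (0.76 ± 0.25) and Qars lower (-0.48 ± 0.22), against 2.6%. The median change in polysomes was -0.19 over cytosolic and -0.19 over mitochondrial members, and 0.0023 over all tested genes. The sign of both class medians turned without N replicate 3, to 0.043 and 0.028, and 0 members passed at an unadjusted p under 0.05 in total mRNA, against 0.629% of tested genes, with Dars at 0.43 and Qars at -0.21. Yars2 had 17.9, 13.16 and 21.4 CPM with vehicle and 14.3, 12.7 and 11.5 CPM with CR-31 (-0.45 ± 0.22), with overlap between its groups. Ears2 had 16.4, 13.5 and 22.6 CPM with vehicle and 16.4, 11.3 and 12.5 CPM with CR-31 (-0.38 ± 0.24).

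The cytosolic members with the smallest p in N polysomes were Tars, with 96.1, 46.2 and 75.8 CPM with vehicle and 82.3, 45.01 and 38.3 CPM with CR-31 (-0.40 ± 0.33), and Farsa, with 59.5, 48.4 and 96.7 CPM with vehicle and 76.0, 47.3 and 40.1 CPM with CR-31 (-0.32 ± 0.29). In all 4 of these members the change in replicate 3 was the largest of the 3 pairs, -0.90 for Yars2, -0.86 for Ears2, -0.98 for Tars and -1.27 for Farsa. Without N replicate 3 the values were -0.20 for Yars2, -0.099 for Ears2, -0.15 for Tars and 0.20 for Farsa. Lars2 had pair changes of 0.76, 0.58 and 1.43 in N and of -0.04, -1.10 and -0.10 in KP, and the difference of KP from N was -1.84 ± 1.45 (adjusted p = 0.9995). No member and 0% of tested genes were called for a difference between KP and N in the response to CR-31, in polysomes or in translational efficiency (0%), although leaving out the CR-31 lysate of N replicate 2 gave 7 calls in the latter, all higher in KP, against 9.77% of tested genes higher and 6.85% lower. At an unadjusted p under 0.05, Eprs (1.38 ± 0.58), Lars (1.59 ± 0.64) and Rars2 (1.46 ± 0.60) passed there, against 10.7% of tested genes, and no member did in polysomes (2.26%). No member passed in either without N replicate 3, against 6.05% of tested genes in translational efficiency and 1.63% in polysomes, and the 3 values were 0.77, 0.80 and 0.77.

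Polysome-associated mRNA was also set against total mRNA of the same vehicle lysates, where 3 of 32 members were called in N and 8 in KP. In N, Eprs (1.31 ± 0.29, adjusted p = 0.024) and Lars (0.95 ± 0.32, adjusted p = 0.13) were higher in polysomes and Lars2 lower (-2.15 ± 0.72, adjusted p = 0.12), against 8.83% of tested genes higher and 6.36% lower. In KP, Vars (0.37 ± 0.19) and Vars2 (0.50 ± 0.18) were higher, and Gars, Iars, Lars2, Mars2, Nars2 and Wars2 were lower, from -0.32 for Nars2 to -2.57 for Lars2, against 14.2% and 13.3%. Lars2 had 101, 1800 and 863 CPM in total mRNA of N vehicle lysates against 45.1, 68.6 and 474 CPM in polysomes, and 970.2, 1722 and 595 CPM in total mRNA of KP against 107, 315.5 and 172 CPM in polysomes. It was lower in polysomes than in total mRNA in each of the 6 lysates, and no other member varied as widely between libraries. In N there were 9 calls without N replicate 3, 2 higher and 7 lower, against 15% and 20.7% of tested genes, 1 call without N replicate 2, against 2.83% in either direction, and 0 without the vehicle lysate of N replicate 2. In KP there were 17 calls without N replicate 3, 6 higher and 11 lower, against 23.1% and 24.7%, and 13 without its CR-31 lysate alone, against 33.4% in either direction. There were 0 calls without KP replicate 2 or 3 or the vehicle lysate of KP replicate 1 or 2, 4 without KP replicate 1 (13.9% of tested genes) and 3 without N replicate 1 (15.3%). There were 5 without its vehicle lysate (23.6%) or its CR-31 lysate (22.3%) alone, and 1 without the vehicle lysate of KP replicate 3 (6.08%).

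For each gene the longest 5′ leader and the longest coding sequence of its GENCODE M21 models were used, not those of the transcript expressed. The leader had a median of 155.5 bases in cytosolic and 164.5 in mitochondrial members, against 236 over the 11082 tested genes with one. The G and C contents were 60.0%, 65.4% and 62.6%. Leader lengths spread widely, with quartiles of 120 and 235.5 bases in cytosolic and 33.25 and 402.5 in mitochondrial members. The coding sequence had a median of 2073 bases in cytosolic, 1612 in mitochondrial members and 1395 over tested genes. Partial overlap with another gene was found for Cars2 (Naxd), Hars with Hars2, Vars2 (Gm20483), Nars2 (C230038L03Rik), Ears2 (Ubfd1) and Fars2 (Lyrm4), all on opposite strands.

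Of 11 tested genes of tRNA charging and handling, 4 were higher in KP in vehicle polysomes and 0 lower, against the 20.9% and 22.2% of all tested genes: Dtd1, which removes wrongly attached D-amino acids (0.91 ± 0.28), Aarsd1, which clears mischarged alanine tRNA (0.85 ± 0.22), Pstk, a kinase of selenocysteine synthesis (0.60 ± 0.31), and Gatc, a subunit of the mitochondrial glutaminyl-tRNA amidotransferase (0.38 ± 0.20). The list had a median of 0.38. In total mRNA Dtd1 (0.60 ± 0.21) and Aarsd1 (0.48 ± 0.19) were called, against 13.1% of tested genes called higher. The list held 4 calls in polysomes and 1 in total mRNA without N replicate 3, against 26.3% of tested genes each way in polysomes and 8.25% higher and 10.7% lower in total mRNA. Of 9 tested genes of ATF4 and its other targets, 3 were higher in polysomes, the asparagine synthetase Asns (0.89 ± 0.51) and the serine synthesis enzymes Psat1 (1.20 ± 0.39) and Phgdh (0.85 ± 0.47), and Psat1 in total mRNA (1.11 ± 0.42). This list held 2 calls in polysomes and 0 in total mRNA without N replicate 3, against the same shares.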

How the data were processed

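Polysome-associated and total mRNA of N and KP organoids were sequenced in 24 libraries from 12 lysates, and groups and replicates were taken from the sample labels. The authors aligned reads with HISAT2, discarded reads with several matches and deposited counts per gene and library without normalization, as well as RPKM values (reads per length and depth) of the same libraries, and replicates were not pooled. The submitters' processing notes also name SAMtools and the human genome hg38 (GRCh38), whereas the genes of the table are mouse RefSeq genes, and the strand setting of the counting is not given in the sources used here. The table held 0 columns of other series.

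The members and the gene lists were chosen with earlier results of these data known. The test covered genes that had reads in all libraries, as in the study. Counts were scaled with TMM and tested with edgeR 4.0.16 (R 4.3.3), by its quasi-likelihood test in a model of 4 groups for each fraction. For translational efficiency, 1 model of 24 libraries held a block for each lysate, and the fraction by group interaction was tested. Unless named otherwise, adjusted p-values come from edgeR after Benjamini-Hochberg adjustment over all tested genes, and the threshold was 0.25. CPM values are relative to TMM-scaled library sizes, ratios use a prior count of 0.5, and RPKM values served only to compare levels between genes. The scripts were tested on simulated data. A few items, among them 1 promoter, are not reported here.

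Alternatives were RLE and upper-quartile scaling, no filter, a filter of 1 CPM, DESeq2 1.42.0, a threshold of 0.05, the replicate number as a block, the lane as a term, a regression on total mRNA (limma 3.58.1) with and without the block, leaving out each lysate or each replicate in turn and, chosen after seeing the data, keeping joint entries and the paired fit of CR-31 in KP without 1 KP replicate or N replicate 3. Same-numbered vehicle and CR-31 libraries of an organoid type deviated together (r = 0.56 to 0.89 in N and 0.45 to 0.80 in KP, 6 of 6 pairs over 0.1 in each), so the numbers pair them, while N and KP libraries did not (2 of 6 pairs over 0.1 with vehicle). Values in every library are given for the 3 cytosolic and 3 mitochondrial members with the smallest p in each KP against N comparison with vehicle, and for 2 of each class in each CR-31 comparison of polysomes, while Lars2, Sars2, Kars and Farsb were added after their values were seen. How much counting error adds to the spread between replicates was not tested. Gene models were from GENCODE M21, and figures used Python 3.11.15, numpy 2.4.6 and matplotlib 3.10.9.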

Additional observations from a re-analysis of the deposited data

Results flagged for a closer look

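Tars, the cytosolic threonine enzyme, changed in opposite directions in all pairs of the 2 organoid types when CR-31 was added. In polysome-associated mRNA the pair changes were 0.24, 0.082 and 0.027 on the log2 scale in KP and -0.22, -0.038 and -0.98 in N, so each KP pair lay above 0 and each N pair below it. Tars was flagged for these values, and the share of tested genes with such signs is not given here. The difference of KP from N was 0.52 ± 0.46, which did not pass (edgeR, adjusted p = 0.9995), and the largest of the 6 changes was that of N replicate 3. When that replicate was left out the difference was 0.28 ± 0.50 and the change in N -0.15.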

How the results depend on the processing

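RLE, upper-quartile scaling, the 1 CPM filter and joint entries left every count of called members within 1.5 times its main value, as did the lane term for CR-31 within an organoid type in polysome-associated and total mRNA, where it could be fitted. With upper-quartile scaling the median of all tested genes between KP and N in vehicle polysomes was -0.128 and 7 members were higher and 1 lower. Without a low-count filter 5 members were called for polysome against total mRNA in KP, against 14.1% of 16175 tested genes, and DESeq2 called 1 member for translational efficiency between KP and N, against 2.96%. At an adjusted p under 0.05 the calls were 1 in vehicle polysomes and 0 in vehicle total mRNA between KP and N (15.2% and 8.99% of tested genes), 1 and 2 with CR-31 (6.02% and 10.6%), and 1 in N and 0 in KP for polysome against total mRNA (3.58% and 1.12%). With the replicate block the counts were 18 and 19 with vehicle, 24 and 19 with CR-31, and 4 for CR-31 in KP polysomes; it changed no other count. The regression on total mRNA called 1 member for translational efficiency between KP and N, and with the replicate block 15, with a difference of class medians of -0.058 and values of 0.47 for Iars and 0.27 for Eprs of the opposite sign; for CR-31 in KP it called 2. The cause was not tested. Leaving out a lysate or a whole replicate gave 4 to 16 calls in vehicle polysomes and 1 to 16 in total mRNA between KP and N, 0 to 8 in translational efficiency, 1 to 22 and 3 to 16 with CR-31, 0 to 17 in KP and 0 to 9 in N for polysome against total mRNA, and 0 to 7 for the difference in the response to CR-31 in translational efficiency, where the 7 came from a single lysate. The paired fit of CR-31 in KP polysomes called 0 members without KP replicate 1, 2 or 3 and 16 without N replicate 3, and the regression with the block called 0 without KP replicate 1, fits chosen after seeing the data. Over leaving out lysates or replicates alone, the cytosolic minus mitochondrial median ranged from -0.36 to -0.051 in vehicle polysomes, -0.098 to 0.42 in total mRNA, -0.48 to -0.21 in translational efficiency, 0.016 to 0.44 for CR-31 in KP and -0.31 to 0.12 for CR-31 in N polysomes. Farsa with CR-31 in N polysomes ranged from -0.75 without N replicate 1 to 0.20 without N replicate 3, and was 0.025 without N vehicle replicate 3.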
